A study of Mus musculus with 4 samples.

Results

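The Serpin family was examined here in single cells of the mouse trachea. Members were taken by gene symbol, as every feature named Serpin followed by a clade letter from a to i and a number, which matched 61 of the 30907 features in the count matrices, and 60 of these enter the counts and sums that follow. Counts of unique molecular identifiers (UMIs) were summed per library and cell class and scaled to 1000000 UMIs of that sum (CPM). The 17 members with at least 10 CPM in any sum of at least 50 cells are described one by one: Serpina3g, Serpina3n, Serpina9, Serpinb1a, Serpinb1b, Serpinb2, Serpinb5, Serpinb6a, Serpinb6b, Serpinb8, Serpinb9, Serpinb11, Serpinb12, Serpine2, Serpinf1, Serping1 and Serpinh1. Of the other 43, 22 had no UMI at all and 21 had some. The lowest peak level among the described members was 19.0 CPM (Serpinf1 in immune-gated cells of the primary BC endogenous library), and the highest among the others was 8.83 CPM (Serpina3f).

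There were 4 groups of 1 library each, from the tracheas of 2 adult wild-type recipient mice. Both tracheas had been injured with 2% polidocanol, a detergent that strips the surface epithelium, and received 6000000 mouse cells 5 hours later. The first recipient, with the strain label 129 X1/S1, received iBCs, which are basal cells made from pluripotent stem cells in culture, and was examined on day 192. The second recipient, labelled C57BL/6, was given basal cells (BCs) taken directly from animals, termed primary, and was examined on day 69. Each trachea was digested with pronase, and live Calcein Blue positive cells were sorted by GFP for the 10x Chromium system: GFP-positive cells gave the donor-derived library, and GFP-negative cells the endogenous one. The groups are named iBC endogenous, iBC donor-derived, primary BC endogenous and primary BC donor-derived below, and values are always given in that order. An uninjured control trachea named in the labels was not analysed here. Each recipient kind was 1 animal, so strain, day, donor cell kind and animal cannot be told apart, and no value has a replicate. All intervals are exact 95% intervals for counting error only.

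Serpins are mostly suicide inhibitors of proteases: the target cuts an exposed loop of the serpin and is trapped on it. Clade A, C, D, E, F and G members are typically secreted and act in blood, on the cell surface or in the matrix, whereas clade B members lack a usual signal peptide and mostly act inside the cell, where they protect it from proteases of leukocyte granules and lysosomes. A few members, such as Serpinb5 and the collagen chaperone Serpinh1, inhibit no protease. In the mouse several human genes correspond to tandem families of similar copies.

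The 4 libraries held 21504563 to 26625123 UMIs over 6784 barcodes, of which 6542 cells were kept, with 1350 to 1816 cells and a median of 9321.5 to 14519 UMIs per kept cell by library. The iBC donor-derived library shared 1 cell barcode with each of the primary BC libraries, and no other pair shared any. The EGFP reporter stood at 0.0917, 65.4, 9.71 and 608 CPM, so it was higher in each donor-derived library than in the endogenous library of the same trachea. Cells were classed by the mean level of marker genes that include no serpin. This gave 718, 570, 455 and 961 basal-gated cells, 521, 370, 265 and 234 secretory-gated cells and 360, 271, 206 and 168 ciliated-gated cells. Cells with both basal and secretory markers, called basal-secretory, numbered 99, 8, 297 and 366. Cells that passed no gate were 20.1% of the iBC donor-derived library and 1.93 to 3.22% of the others. All but 2 of the 316 such cells in the iBC donor-derived library took a class when the cells were clustered instead. Median UMIs per cell were 7727.5, 9708.5, 11557 and 10383 in basal-gated, 16854, 17155.5, 26196 and 23565.5 in secretory-gated and 11931.5, 11924, 19339 and 17332 in ciliated-gated cells. In the basal-gated sums the immune markers came to at most 2.43 CPM. The fibroblast markers came to 502 to 645 CPM there, with 4 or 5 of the 6 at 0.

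By location, 23 members lie in a run on chromosome 12 from 103614786 to 104414329 (clade A, 3 described), 11 on chromosome 1 from 106861173 to 107610484 (clade B, 5 described) and 15 on chromosome 13 from 32842092 to 34002794 (clade B, 5 described), in GRCm38 coordinates of GENCODE vM21. Members within these runs are close copies of one another, above all in the Serpina1, Serpina3, Serpinb1, Serpinb3, Serpinb6 and Serpinb9 groups. Reads can be shared or lost between such copies, so the values of Serpina3g, Serpina3n, Serpinb1a, Serpinb1b, Serpinb6a, Serpinb6b and Serpinb9 are uncertain in that respect.

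Summed over the family, basal-gated cells held 755, 893, 689 and 703 CPM. The 4 libraries lay within a narrow range in that class. Secretory-gated cells held 433, 387, 793 and 729 CPM and ciliated-gated cells 545, 478, 863 and 1068 CPM, so both iBC recipient libraries lay below both primary BC recipient libraries in these 2 classes. Clade B made up most of each of these sums, with 299 to 681 CPM. Single members weighed heavily in the gaps between recipients. Serpinb11 read 92.3, 1.82, 324 and 232 CPM in secretory-gated cells, and Serpina9 21.3, 2.44, 226 and 245 CPM in ciliated-gated cells. Not all members followed. Between endogenous secretory-gated cells, 4 of 7 tested members were called, 2 higher and 2 lower in the iBC recipient (7% of all features were called). Between endogenous ciliated-gated cells, 5 of 11 were called, 1 higher and 4 lower in that recipient (8.47% of all features). Classes differed in which members they held. Among the basal-, secretory- and ciliated-gated sums of the heat map, Serpina9, Serpinb12 and Serpinb1b were highest in ciliated-gated cells of all 4 libraries. Among the same sums, Serpinb11 was highest in secretory-gated cells, and Serpinb5, Serpinb8, Serpinb6b, Serpinb9 and Serpinh1 in basal-gated cells, again in all 4 libraries. Outside these classes, Serpinb5 read higher in hillock-gated cells. Serpinb8 and Serpinb9 read higher in immune-gated cells of the primary BC endogenous library.

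**Figure D1:**
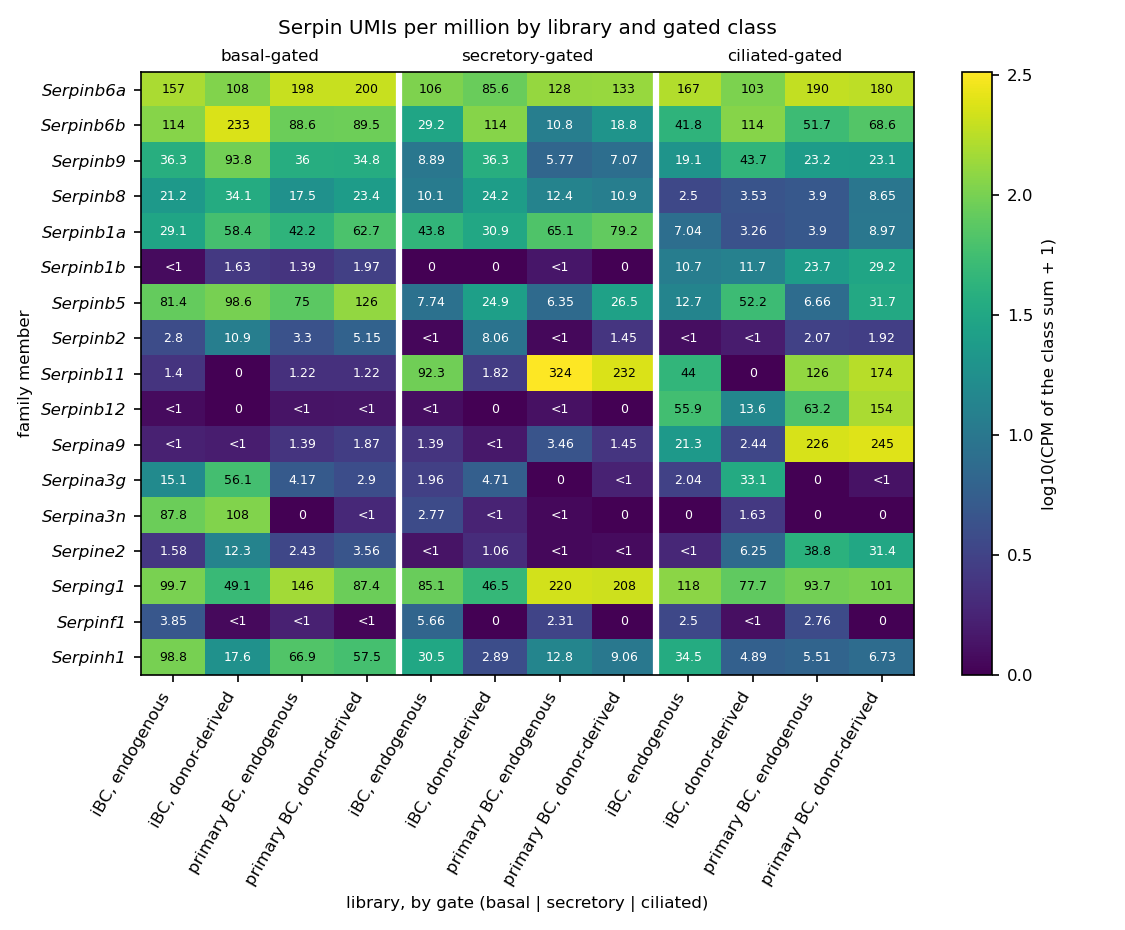
CPM of the 17 described members (rows) in the basal-, secretory- and ciliated-gated sums of each library (columns), printed in each cell and coloured as log10(CPM + 1). Within a row, colours compare libraries and classes. Serpina9 and Serpinb12 are bright only in the ciliated columns, and Serpina3n only in the basal columns of the iBC recipient.

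The first comparison asked how donor-derived cells differed from endogenous cells of the same trachea. A feature was counted as called when its CPM differed at least 2-fold and the interval of the ratio excluded 1, among features with at least 10 CPM in either sum. In the iBC recipient, 8 of 12 tested members were called in basal-gated cells (9.4% of all features tested), 6 of 9 in secretory-gated cells (12.9% of all) and 8 of 11 in ciliated-gated cells (10.1% of all). Calls went both ways. In basal-gated cells 6 members were higher and 2 lower in donor-derived cells, where 5.28% of all features were higher and 4.12% lower. In secretory-gated cells 4 were higher and 2 lower (8.77 and 4.1% of all features), and in ciliated-gated cells 4 were higher and 4 lower (4.84 and 5.27%). The median log2 ratio of the tested members was 0.74, -0.29 and -0.58 in these classes, against 0.13, 0.30 and 0.08 over all features. A member near 10 CPM could be tested only through the sum in which it was high. Among members with at least 10 CPM in both sums, 6 of 10, 2 of 5 and 4 of 7 were called in these classes, where 4.41, 6.73 and 4.74% of all such features were. Markers of other cells differed in the same basal-gated sums of the iBC recipient. Of 8 tested secretory markers, 7 were lower and 1 higher in donor-derived cells (summed level 22800 CPM in endogenous and 10090 CPM in donor-derived cells). Of 5 cycling markers 3 were higher (55.5 and 129 CPM), and of 3 tested alveolar type 2 markers Sftpc was higher (list sums of 103 and 315 CPM). The part of these markers in the members' differences was not tested. In the primary BC recipient, 0 of 8 tested members were called in basal-gated cells (1.13% of all features), 1 of 8 in secretory-gated cells (1.23%), 1 of 9 in basal-secretory cells (1.28%) and 2 of 10 in ciliated-gated cells (1.34%). All 4 of these calls were higher in donor-derived cells, where 0.381, 0.524, 0.46 and 0.717% of all features were called higher in the same 4 classes. With at least 10 CPM in both sums, 0 of 8, 0 of 6, 1 of 9 and 1 of 9 were called. The share of all features under that filter was not computed for this recipient, so these last counts have no background to be read against. Serpinb5 was the one member called in the same direction in both recipients, in secretory-gated and in ciliated-gated cells.

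**Figure D2:**
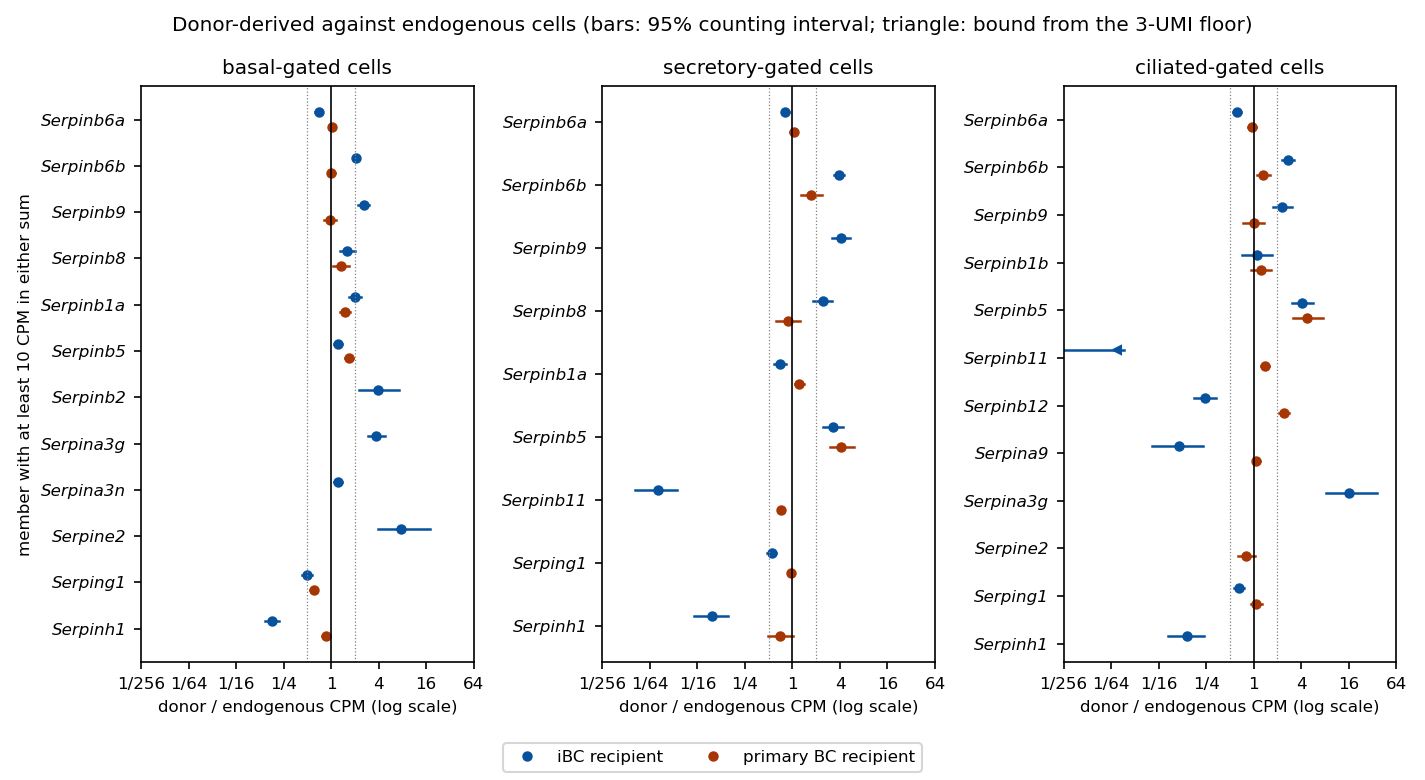
Ratio of donor-derived to endogenous CPM (x axis, log scale) for each member with at least 10 CPM in either sum, by class, in the iBC recipient (blue) and the primary BC recipient (brown). Bars are 95% counting intervals, dotted lines mark 2-fold, and a triangle marks a bound from the 3-UMI floor. Most brown points lie within 2-fold, whereas blue points spread to both sides, with Serpinh1 and Serpinb11 far to the left and Serpinb6b and Serpinb9 to the right.

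Serpinb9 and Serpinb6b, neighbours on chromosome 13, were the 2 members called higher in iBC donor-derived cells in all 3 large classes. Serpinb9 inhibits granzyme B and protects cells from killer lymphocytes, and Serpinb6b is a mouse paralogue of Serpinb6a. Their promoter windows are shown because the neighbours moved together. The windows run from 250 bases before to 50 after the start site, taken from RefSeq (GRCm38.p6), and lie at chr13:33004291-33004590 for Serpinb9 and chr13:32965011-32965310 for Serpinb6b, both on the plus strand. Capitals mark the match to the core of an interferon-stimulated response element (GAAA, any 2 bases, GAAA), read on the minus strand.
Serpinb9: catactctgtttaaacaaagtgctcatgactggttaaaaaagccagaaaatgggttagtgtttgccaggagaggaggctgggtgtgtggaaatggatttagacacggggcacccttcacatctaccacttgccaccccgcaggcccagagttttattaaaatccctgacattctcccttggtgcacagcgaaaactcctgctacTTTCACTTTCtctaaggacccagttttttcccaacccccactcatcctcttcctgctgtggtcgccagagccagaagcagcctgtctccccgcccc
Serpinb6b: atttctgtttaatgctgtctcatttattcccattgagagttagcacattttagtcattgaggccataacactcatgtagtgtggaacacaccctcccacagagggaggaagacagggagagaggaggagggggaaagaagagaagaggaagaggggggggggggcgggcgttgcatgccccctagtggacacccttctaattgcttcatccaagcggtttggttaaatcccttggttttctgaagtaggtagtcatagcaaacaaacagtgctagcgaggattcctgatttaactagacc

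The match in the Serpinb9 window starts 46 bases before the start site, and 3.44% of 32851 promoter windows of the same length hold this core on either strand. The Serpinb6b window held no match to this core, to the STAT site TTCNNNGAA or to the heat shock cores GAANNTTC and TTCNNGAA, which were searched on both strands as well. Of the 17 described members, 14 were found in the promoter table and 6 of those 14 held a match to at least 1 of the 4 motifs in any of their windows, as did 27.0% of the 27025 genes in the table. A Serpinb6a window held 5 matches, among them the interferon core 84 bases before the start site and the STAT site. That member was lowest in the iBC donor-derived library in each large class. Any link between motifs and levels was not tested.

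Serpinb9 stood at 36.3, 93.8, 36.0 and 34.8 CPM in basal-gated cells, in the order given above. The iBC donor-derived library was the high one, and the other 3 lay within 2 CPM of each other. In secretory-gated cells it was 8.89, 36.3, 5.77 and 7.07 CPM and in ciliated-gated cells 19.1, 43.7, 23.2 and 23.1 CPM. Donor-derived cells of the iBC recipient were thus 2.59-fold (2.21 to 3.04), 4.09-fold (3.15 to 5.35) and 2.29-fold (1.75 to 3.02) above endogenous cells. The matching ratios in the primary BC recipient were 0.968 (0.815 to 1.15) in basal-gated and 0.995 (0.725 to 1.36) in ciliated-gated cells. In secretory-gated cells of that recipient both sums were below 10 CPM.

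Serpinb6b read 114, 233, 88.6 and 89.5 CPM in basal-gated, 29.2, 114, 10.8 and 18.8 CPM in secretory-gated and 41.8, 114, 51.7 and 68.6 CPM in ciliated-gated cells. The iBC donor-derived library was again highest in each class. Its ratio to the endogenous library was 2.05 (1.87 to 2.25), 3.89 (3.37 to 4.51) and 2.72 (2.28 to 3.25). The basal-gated call was lost when ratios were taken relative to the median of all features, which lay at 0.13 on the log2 scale, or with TMM scaling. Endogenous secretory-gated cells of the iBC recipient were also 2.70-fold (2.08 to 3.54) above those of the primary BC recipient. Immune-gated cells carried Serpinb6b at 228 CPM in the iBC endogenous library and 88.7 CPM in the primary BC endogenous library, and Serpinb9 at 58.1 and 41.8 CPM. Immune markers summed to 1.33, 0.304 and 4.62 CPM in the basal-, secretory- and ciliated-gated cells of the iBC donor-derived library, with 2, 5 and 6 of the 7 markers at 0.

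Serpinb6a, whose human counterpart inhibits cathepsin G and trypsin-like enzymes, was broad. Its level was 157, 108, 198 and 200.3 CPM in basal-gated, 106, 85.6, 128 and 133 CPM in secretory-gated and 167, 103, 190.4 and 180.4 CPM in ciliated-gated cells. The iBC donor-derived library was lowest in each class, and no difference between donor-derived and endogenous cells reached 2-fold: the ratios were 0.693 (0.627 to 0.765), 0.809 (0.727 to 0.899) and 0.615 (0.542 to 0.698) for the iBC trachea and 1.01 (0.943 to 1.09), 1.03 (0.937 to 1.14) and 0.948 (0.850 to 1.06) for the primary BC trachea. Its paralogue Serpinb6b thus lay on the other side of 1 in the same iBC recipient cells. Serpinb8, whose human counterpart inhibits the convertase furin, stood at 21.2, 34.1, 17.5 and 23.4 CPM in basal-gated and 10.1, 24.2, 12.4 and 10.9 CPM in secretory-gated cells. Its highest level in a sum of at least 50 cells was 45.6 CPM, in immune-gated cells of the primary BC endogenous library. The secretory-gated ratio in the iBC recipient was 2.41 (1.84 to 3.16), and this call was lost with TMM scaling, relative to the all-feature median of 0.30, and with a stricter gate.

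Serpinb1a and Serpinb1b, mouse counterparts of the human inhibitor of neutrophil elastase, were split between classes. Serpinb1b was found almost only in ciliated-gated cells, at 10.7, 11.7, 23.7 and 29.2 CPM, and at no more than 1.97 CPM in basal- and secretory-gated cells. Both primary BC recipient libraries were the higher ones, with ratios between recipients of 2.22 (1.56 to 3.20) among endogenous and 2.50 (1.72 to 3.68) among donor-derived cells. Serpinb1a showed the reverse distribution, at 29.1, 58.4, 42.2 and 62.7 CPM in basal-gated, 43.8, 30.9, 65.1 and 79.2 CPM in secretory-gated and 7.04, 3.26, 3.90 and 8.97 CPM in ciliated-gated cells. Its basal-gated ratio in the iBC recipient, 2.01 (1.67 to 2.42), only just met the 2-fold limit and fell below it under 5 of 6 alternatives.

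A small set of cells carried far more Serpinb1a and Serpinb6a. These cells, gated on high Ccl20 and Ccl9 (a gate chosen after the data were seen), numbered 14, 29, 4 and 1 by library. Serpinb1a stood there at 3489 (3235 to 3757), 3422 (3268 to 3580) and 8391 (7773 to 9045) CPM in the first 3 libraries, from 700, 1865 and 682 UMIs. Serpinb6a stood at 2716, 888 and 701 CPM, and the whole family at 6873, 5053 and 10113 CPM. The single such cell of the primary BC donor-derived library, with 11418 UMIs, had 0 UMIs of either gene. Because these groups held fewer than 50 cells, they are given as values and were not compared. In hillock-gated cells, a squamous-like state, Serpinb1a was 96.7 (5 UMIs in 3 cells), 90.4, 155 and 151 CPM.

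**Figure D3:**
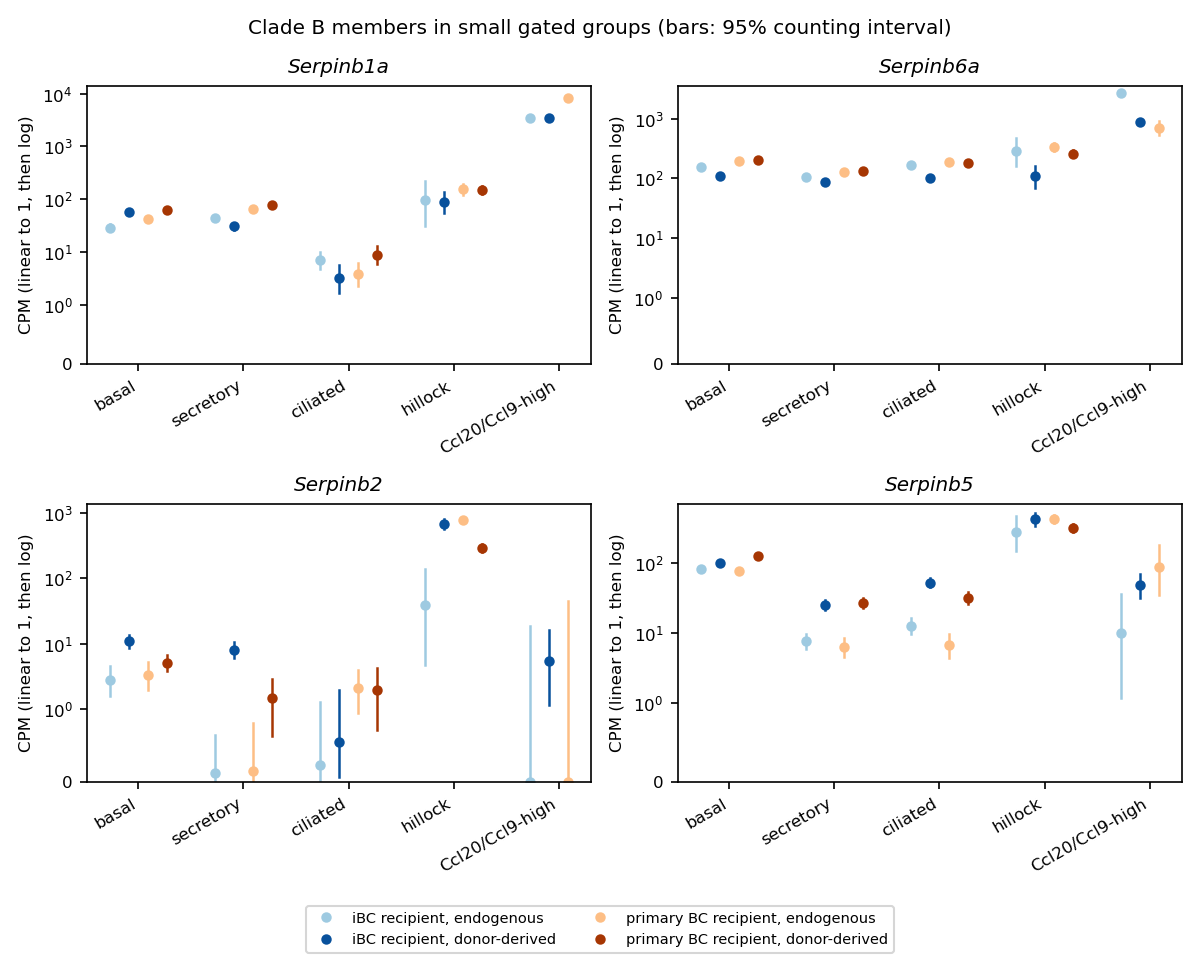
CPM (y axis, linear to 1 and log above) of Serpinb1a, Serpinb6a, Serpinb2 and Serpinb5 by gated class and library, with 95% counting intervals; sums of fewer than 3 cells are left out. Serpinb1a and Serpinb6a are highest in the Ccl20/Ccl9-high cells of 3 libraries, and Serpinb5 in the hillock-gated cells of all 4.

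Serpinb5, or maspin, is a clade B member without inhibitory activity that is known from basal and myoepithelial cells. Basal-gated cells held 81.4, 98.6, 75.0 and 126 CPM. Donor-derived cells were 1.21-fold (1.07 to 1.37) and 1.68-fold (1.51 to 1.88) above endogenous cells there, short of a call. In the differentiated classes the gap was wider in both recipients. Secretory-gated cells held 7.74, 24.9, 6.35 and 26.5 CPM, with donor-derived cells 3.22-fold (2.41 to 4.35) above endogenous cells after iBC transplantation, and 4.17-fold (2.96 to 5.98) above after that of primary BCs. Ciliated-gated cells held 12.7, 52.2, 6.66 and 31.7 CPM, with ratios of 4.10 (3.03 to 5.63) and 4.76 (3.12 to 7.48). Both donor-derived libraries therefore lay above both endogenous libraries in each of these classes, and these 4 calls held under all 6 alternatives of scaling, gating and doublets. In 3 of the 4 the endogenous level was under 10 CPM, so only the iBC ciliated-gated call could be tested with 10 CPM in both sums. The share of ciliated-gated cells with a Serpinb5 UMI was 11.9, 45.0, 10.7 and 36.3%, and 4.61, 21.7, 1.94 and 13.1% after each cell was thinned to 5000 UMIs. Immune-gated cells of the primary BC endogenous library, which should lack the gene, had a UMI in 0 of 63 cells, which allows up to 4.76% at the limit of 3 cells.

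Markers of basal cells moved with Serpinb5 in part. Their summed level in ciliated-gated cells was 35.9, 65.2, 38.8 and 152 CPM, with 2, 0, 0 and 3 of the 9 markers at 0, and in secretory-gated cells 1210, 1405, 1540 and 1934 CPM, with 0, 0, 1 and 2 at 0. Per 1000 basal-marker UMIs, Serpinb5 had 8.63, 10.1, 7.10 and 10.5 UMIs in basal-gated, 6.4, 17.8, 4.12 and 13.7 in secretory-gated and 354, 800, 172 and 208 in ciliated-gated cells. The donor-derived value was the higher one in each class of both recipients, and lay close to the endogenous one in basal-gated cells of the iBC recipient and in ciliated-gated cells of the primary BC recipient, the latter from 29 and 99 Serpinb5 UMIs. No interval was made on this scale. Hillock markers, which accompany high Serpinb5 (271, 411, 419 and 310 CPM in hillock-gated cells), summed to 46.2, 105, 83.1 and 170 CPM in secretory-gated cells. The part of these markers in the result was not tested.

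Serpinb2, the plasminogen activator inhibitor type 2, read far higher in the small hillock-gated groups than in the large gated classes. Hillock-gated cells, 3, 12, 21 and 49 in number, held 38.7 (2 UMIs), 678, 782 and 292 CPM. In basal-gated cells the level was 2.8, 10.9, 3.30 and 5.15 CPM, with a ratio of 3.90 (2.25 to 7.18) in the iBC recipient. This call was lost when the mean over cells of CPM per cell was used in place of the sum. In secretory-gated cells Serpinb2 read 0.116, 8.06, 0.144 and 1.45 CPM, all below the limit for testing.

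Serpinb11, which inhibits trypsin-like proteases in the mouse, was the member with the widest gap in secretory-gated cells. Its level there was 92.3, 1.82, 324 and 232 CPM, from 799, 12, 2248 and 1281 UMIs. The iBC donor-derived library was nearly empty of it, and the endogenous library of that recipient lay between it and the primary BC recipient. Donor-derived cells were 50.6-fold lower (28.8 to 98.3) than endogenous cells in the iBC trachea, and stood at 0.716 times (0.668 to 0.767) the endogenous level in the primary BC recipient. Shares of secretory-gated cells with a UMI were 39.0, 2.43, 86.0 and 79.9%, and 25.3, 1.09, 63.8 and 54.3% at 5000 UMIs per cell. In basal-gated cells the unthinned shares were 0.975, 0, 1.32 and 1.25%, where 0 of 570 cells allows up to 0.526% at the limit of 3 cells. Secretory markers summed to 432600, 319800, 334800 and 312900 CPM in the same secretory-gated sums, and none of the 10 was at 0. In the iBC recipient 4 of these 10 markers, Reg3g and Bpifa1 among them, were called lower in donor-derived cells and 0 higher, with a median log2 ratio of -0.82 against 0.30 over all features. Their part in the Serpinb11 difference was not tested.

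Ciliated-gated cells held less Serpinb11, at 44.0, 0, 126 and 174 CPM. Both iBC recipient libraries were again below both primary BC recipient libraries, but here the primary BC donor-derived level was 1.38 times (1.23 to 1.56) the endogenous one. With 0 UMIs the iBC donor-derived level was below 0.815 CPM at the 3-UMI limit. Set to that limit it was 54.1-fold lower than in endogenous cells, and the counting interval of the ratio began at 43.5-fold. In the basal-secretory cells of the primary BC recipient the gene read 19.1 CPM in endogenous and 39.4 CPM in donor-derived cells, a call that turned to the opposite direction with a stricter gate or with clusters (log2 ratios of -0.27 and -0.39) and was lost with called doublets kept.

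Serpinb12, a neighbour of Serpinb5 that inhibits trypsin-like serine proteases, was confined to ciliated-gated cells among the 3 large classes, at 55.9, 13.6, 63.2 and 154 CPM, with no more than 0.374 CPM in basal- and secretory-gated cells of any library. The 2 endogenous libraries were close and the 2 donor-derived libraries lay at opposite ends. Donor-derived cells were 4.11-fold lower (3.02 to 5.69) than endogenous cells in the iBC trachea, and 2.43-fold higher (2.09 to 2.83) in the primary BC trachea. The difference between these ratios was not tested, since each rests on 1 library per side.

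Serpina9, also called centerin and first known from germinal centre B cells, was a ciliated-cell gene in the primary BC recipient. Ciliated-gated cells held 21.3, 2.44, 226 and 245 CPM, from 94, 9, 985 and 764 UMIs. Both primary BC recipient libraries were high and their ratio was 1.08 (0.984 to 1.19). Endogenous ciliated-gated cells of the iBC recipient were 10.6-fold lower (8.57 to 13.2) than those of the primary BC recipient, and donor-derived cells 100.2-fold lower (52.5 to 219.9). Within the iBC recipient donor-derived cells were 8.73-fold lower (4.41 to 19.7) than endogenous cells. A Serpina9 UMI was found in 19.2, 2.95, 86.9 and 91.1% of ciliated-gated cells, and in 9.22, 0.749, 61.7 and 65.5% at 5000 UMIs per cell. Basal-gated cells, taken as background, had shares of 0.557, 0.702, 1.76 and 1.98%, and of 0.444, 0.178, 1.10 and 1.05% at 5000 UMIs per cell. The iBC donor-derived level in ciliated-gated cells, from 9 UMIs, was 4.14 times (1.16 to 18.4) that in basal-gated cells. Ciliated markers summed to 13750, 15670, 14620 and 14320 CPM in these sums, none of the 11 at 0.

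**Figure D4:**
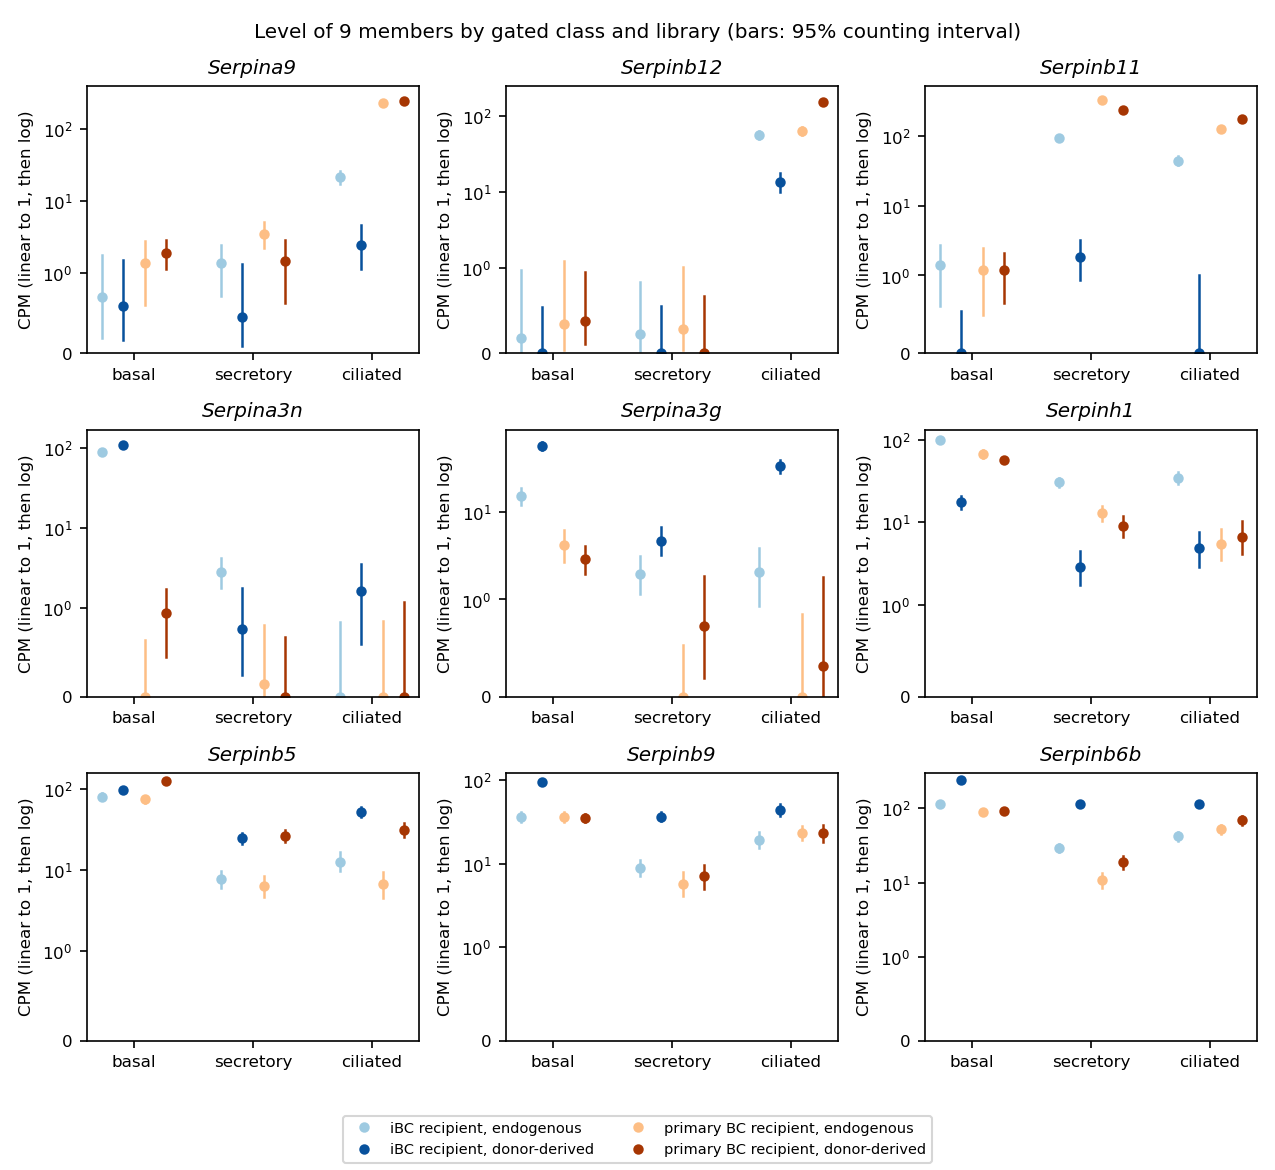
CPM (y axis, linear to 1 and log above) of 9 members in basal-, secretory- and ciliated-gated cells of each library, with 95% counting intervals. Dark blue points (iBC donor-derived) are lowest for Serpina9, Serpinb12 and Serpinb11 in ciliated-gated cells and highest for Serpinb9 and Serpinb6b in all 3 classes, and the 2 dark points lie above both light points for Serpinb5 in secretory- and ciliated-gated cells.

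Serpina3n is an acute-phase inhibitor of cathepsin G and granzyme B, and Serpina3g (Spi2A) inhibits lysosomal cathepsins in lymphocytes. They lie in the same run on chromosome 12. Among basal-, secretory- and ciliated-gated cells, both were highest in basal-gated cells of each iBC recipient library. Their windows, from RefSeq (GRCm38.p6), lie at chr12:104406458-104406757 and chr12:104235897-104236196, both on the plus strand, and are shown to set the 2 members of this run side by side. Capitals mark the match to the STAT site TTCNNNGAA, which starts 33 bases before the Serpina3g start site. This motif is found in 8.3% of all promoter windows, and the Serpina3n window had no match to any of the 4 motifs.
Serpina3n: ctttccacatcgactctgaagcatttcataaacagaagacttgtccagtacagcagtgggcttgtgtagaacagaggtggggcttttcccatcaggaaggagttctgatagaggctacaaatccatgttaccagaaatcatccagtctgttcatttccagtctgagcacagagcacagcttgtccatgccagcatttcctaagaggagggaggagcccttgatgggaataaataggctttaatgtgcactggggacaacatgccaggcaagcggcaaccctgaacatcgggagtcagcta
Serpina3g: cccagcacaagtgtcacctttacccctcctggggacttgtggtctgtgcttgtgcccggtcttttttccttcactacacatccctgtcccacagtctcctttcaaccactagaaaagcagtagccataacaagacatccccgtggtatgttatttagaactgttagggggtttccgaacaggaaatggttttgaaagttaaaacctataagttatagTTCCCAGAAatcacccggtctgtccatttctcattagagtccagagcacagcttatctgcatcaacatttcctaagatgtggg

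Serpina3n read 87.8, 108, 0 and 0.936 CPM in basal-gated cells, from 501, 729, 0 and 10 UMIs. Both iBC recipient libraries were high, with donor-derived cells 1.23-fold (1.09 to 1.38) above endogenous cells, and both primary BC recipient libraries were at or near 0. Endogenous cells of the iBC recipient were 168-fold above those of the primary BC recipient when the 0 UMIs there were set to the limit of 3. Donor-derived cells were 115-fold above (62.2 to 241). The share of basal-gated cells with a UMI was 36.6, 42.6, 0 and 0.624%, and 24.9, 27.6, 0 and 0.421% at 5000 UMIs per cell. With 0 of 455 cells, the limit of 3 cells allows an endogenous share of up to 0.659% in the primary BC recipient. Secretory-gated cells held 2.77, 0.760, 0.144 and 0 CPM and ciliated-gated cells 0, 1.63, 0 and 0 CPM, so the gene was largely a basal-cell feature where it was found. Basal-secretory cells stood at 60.4 CPM in the iBC endogenous and 0.414 CPM in the primary BC endogenous library.

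Serpina3g was lower and less even: 15.1, 56.1, 4.17 and 2.90 CPM in basal-gated cells. Donor-derived cells were 3.73-fold (2.94 to 4.77) above endogenous cells in the iBC recipient. Endogenous cells of the iBC recipient were 3.61-fold (2.28 to 5.94) above those of the primary BC recipient, a call that was lost when classes came from clusters. Among donor-derived cells the ratio was 19.4 (13.4 to 28.9). Few cells carried most of it, since 16.7% of basal-gated iBC donor-derived cells had a UMI and the top 10% of cells held 90% of all UMIs, with up to 36 UMIs in 1 cell. In the iBC endogenous basal-gated sum, 1 cell held 28 of the 86 UMIs and the top 10% of cells held 100%. The ratios that use this sum share that limit. In ciliated-gated cells the level was 2.04, 33.1, 0 and 0.321 CPM. The iBC donor-derived value there came from 122 UMIs in 9 cells (3.32%), with up to 40 in 1 cell, so its ratio of 16.2 (8.27 to 36.3) rests on those 9 cells.

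Among the secreted regulators of the plasminogen and complement systems, Serping1, the C1 inhibitor that restrains complement C1 and the contact system, was found in every large class. Basal-gated cells held 99.7, 49.1, 146 and 87.4 CPM. Donor-derived cells were lower in both recipients, 2.03-fold (1.77 to 2.33) after iBC and 1.67-fold (1.52 to 1.84) after primary BC transplantation, and only the first met the 2-fold limit. That call was lost with a stricter gate. Secretory-gated cells held 85.1, 46.5, 219.6 and 208 CPM, so both primary BC recipient libraries were high: endogenous cells of the iBC recipient were 2.58-fold lower (2.36 to 2.82) and donor-derived cells 4.47-fold lower (3.94 to 5.09). Ciliated-gated cells held 118, 77.7, 93.7 and 101 CPM, with no call in either recipient.

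Serpine2, or protease nexin-1, which inhibits thrombin and urokinase, changed class between the recipients. In ciliated-gated cells it read 0.908, 6.25, 38.8 and 31.4 CPM, and endogenous cells of the iBC recipient were 42.7-fold lower (16.4 to 159) than those of the primary BC recipient, from 4 UMIs. In basal-gated cells it read 1.58, 12.3, 2.43 and 3.56 CPM, and the donor-derived level in the iBC recipient was 7.78 times (3.91 to 17.6) the endogenous one. Basal-gated cells were the highest class in both iBC recipient libraries and ciliated-gated cells in both primary BC recipient libraries. In the iBC endogenous library, though, the basal-gated to ciliated-gated ratio was 1.74 with an interval of 0.485 to 7.71.

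Serpinf1, or pigment epithelium-derived factor, is an anti-angiogenic member without inhibitory activity and was described only because of the immune-gated cells of the primary BC endogenous library, at 19.0 CPM (10.6 to 31.4) from 15 UMIs in 63 cells. Basal-gated cells held 3.85, 0.148, 0.695 and 0.0936 CPM and secretory-gated cells 5.66, 0, 2.31 and 0 CPM. Endogenous libraries read above donor-derived libraries of the same trachea in both classes, at levels under the 10 CPM limit. In basal-gated cells of the primary BC recipient this rested on 4 endogenous UMIs and 1 donor-derived UMI. The interval of that donor-derived to endogenous ratio, 0.0027 to 1.36, included 1.

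Serpinh1, also called HSP47, is a chaperone of the endoplasmic reticulum that binds folded procollagen and is known as a heat shock gene. Its window from RefSeq (GRCm38.p6), at chr7:99353190-99353489 on the minus strand, is shown because Serpinh1 was the one member called lower in all 3 large classes of the iBC recipient. It held no match to the heat shock cores GAANNTTC and TTCNNGAA, which 7.86 and 8.52% of promoter windows hold, nor to the other 2 motifs.
Serpinh1: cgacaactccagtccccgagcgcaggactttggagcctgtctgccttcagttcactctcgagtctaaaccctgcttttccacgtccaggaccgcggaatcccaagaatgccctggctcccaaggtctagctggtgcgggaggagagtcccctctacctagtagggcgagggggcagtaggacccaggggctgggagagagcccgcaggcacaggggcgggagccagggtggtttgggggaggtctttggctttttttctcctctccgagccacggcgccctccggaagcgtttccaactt

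Serpinh1 read 98.8, 17.6, 66.9 and 57.5 CPM in basal-gated cells, 30.5, 2.89, 12.8 and 9.06 CPM in secretory-gated cells and 34.5, 4.89, 5.51 and 6.73 CPM in ciliated-gated cells. The iBC endogenous library was highest and the iBC donor-derived library lowest in each class, although in ciliated-gated cells it lay within 2 CPM of both primary BC recipient libraries. Donor-derived cells of the iBC recipient were 5.62-fold (4.60 to 6.91), 10.6-fold (6.63 to 17.8) and 7.06-fold (4.32 to 12.2) lower than endogenous cells. In the primary BC recipient the donor-derived level was 0.859 times (0.755 to 0.979) the endogenous level in basal-gated and 0.706 times (0.489 to 1.01) in secretory-gated cells. Endogenous cells of the iBC recipient were above those of the primary BC recipient in secretory-gated (2.38-fold, 1.86 to 3.06) and ciliated-gated cells (6.26-fold, 4.05 to 10.1), and 1.48-fold above (1.29 to 1.69) in basal-gated cells, short of a call. Donor-derived cells were below in basal-gated cells (3.27-fold, 2.68 to 4.01) and by a like factor in secretory-gated cells (3.14-fold, 1.82 to 5.63), where both sums were under 10 CPM and so not tested.

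The collagens and collagen-folding partners of Serpinh1, taken as a list, had median ratios close to those of all features in the iBC recipient. Of 25 such genes, 14, 9 and 10 were tested in basal-, secretory- and ciliated-gated cells of the iBC recipient. None was called in the first 2 classes, where 9.4 and 12.9% of all features were. In the third, 1 was higher and 1 lower in donor-derived cells (10.1% of all features were called). The list's median log2 ratio was 0.04, 0.21 and 0.03, beside 0.13, 0.30 and 0.08 over all features. The lower gene was Col4a1, a basement membrane collagen, at 17.5 CPM in endogenous and 0 CPM in donor-derived ciliated-gated cells, and the higher one P4ha2, a prolyl hydroxylase of procollagen, at 9.54 and 20.1 CPM.

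Proteases, some of them serpin targets, and other inhibitors were examined as lists in the same comparison. The protease list of 50 genes also holds F3, the tissue factor, which is a cofactor and no protease. Of the 50, 19, 21 and 18 were tested in the 3 classes, with 2, 9 and 1 called higher and 4, 4 and 2 lower in donor-derived cells. Over all features 5.28, 8.77 and 4.84% were higher and 4.12, 4.1 and 5.27% lower. The list's median log2 ratio was -0.07, 0.45 and -0.02, against the all-feature medians of 0.13, 0.30 and 0.08. The 9 higher calls in secretory-gated cells included Prss22, a tryptase-like protease (1.39 CPM in endogenous and 27.8 CPM in donor-derived cells), and the lysosomal Ctsc (20.3 and 86.7 CPM), which activates granule proteases. Among the lower ones were Klk11 (18.7 and 0.152 CPM) and Tmprss2 (16.9 and 1.37 CPM), both trypsin-like. In basal-gated cells Ctsc was also higher (46.2 and 153 CPM), as was St14, or matriptase (22.1 and 49.5 CPM), whereas F3 was 8.32-fold lower (743 and 89.4 CPM) and Klk8 8.55-fold lower (24.0 and 2.81 CPM). The leukocyte granule enzymes Elane, Prtn3, Ctsg and Gzmb had 0 UMIs in basal-gated cells of both libraries.

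Of 11 plasminogen activation genes, 5, 6 and 7 were tested and 0, 1 and 2 called, where 9.4, 12.9 and 10.1% of all features were called either way. Their median log2 ratio was 0.18, 0.16 and -0.11. The calls were Plat, the tissue plasminogen activator, higher in secretory-gated cells (8.32 and 19.8 CPM), and in ciliated-gated cells Lrp1, a receptor that clears serpin complexes, higher (2.73 and 15.2 CPM) and Plaur, the urokinase receptor, lower (22.5 and 0 CPM). Of 19 complement and contact genes, 6, 6 and 8 were tested, with 2, 2 and 3 higher and 2, 3 and 2 lower, and medians of 0.00, -0.29 and -0.32. C1ra, a target of Serping1, was higher in basal-gated (6.31 and 17.3 CPM) and secretory-gated cells (11.8 and 27.8 CPM), where Serping1 itself read lower. C3 was lower in these 2 classes (133 and 47.4 CPM, 455 and 148 CPM) and higher in ciliated-gated cells (15.9 and 80.9 CPM). Of 34 protease inhibitors outside the family, 8, 10 and 10 were tested, with 1, 3 and 2 higher and 1, 0 and 1 lower, and medians of 0.15, 0.62 and 0.60. The same all-feature shares apply to both lists. Wfdc2, a whey acidic protein family inhibitor, was lower in basal-gated (3945 and 1680.0 CPM) and ciliated-gated cells (6641 and 2555 CPM), and Spink1, a trypsin inhibitor, was higher in secretory-gated cells (1.62 and 21.7 CPM).

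The same members were then set side by side between the recipients. These ratios share libraries with the comparison within each trachea and mix strain, day, animal and donor cell kind. Among endogenous cells, iBC against primary BC recipient, 2 of 10 tested members were called in basal-gated cells (4.92% of all features), 4 of 7 in secretory-gated (7% of all), 2 of 10 in basal-secretory (6.68% of all) and 5 of 11 in ciliated-gated cells (8.47% of all). With at least 10 CPM in both sums, 0 of 8, 4 of 7, 0 of 8 and 3 of 8 members were called. The share of all features under that filter was not computed between recipients. Serpina3n and Serpina3g were the basal-gated calls. In secretory-gated cells Serpinh1 and Serpinb6b were higher and Serpinb11 (3.51-fold, 3.24 to 3.81) and Serping1 lower in the iBC recipient. In ciliated-gated cells Serpinh1 was higher and Serpine2, Serpinb11 (2.86-fold, 2.42 to 3.38), Serpinb1b and Serpina9 were lower. In basal-secretory cells Serpina3n was higher and Serpinb11 was 2.45-fold lower (1.19 to 5.83), a call lost with doublets kept and with per-cell means.

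Among donor-derived cells, 7 of 12 tested members were called in basal-gated (13.2% of all features), 6 of 8 in secretory-gated (15.6% of all) and 6 of 11 in ciliated-gated cells (13.8% of all). With at least 10 CPM in both sums, 3 of 8, 4 of 6 and 2 of 7 members were called, again without an all-feature share under that filter. Higher in iBC donor-derived basal-gated cells were Serpine2, Serpinb2, Serpinb6b, Serpinb9, Serpina3g and Serpina3n, and lower was Serpinh1. In secretory-gated cells Serpinb8, Serpinb6b (6.04-fold, 4.91 to 7.48) and Serpinb9 (5.14-fold, 3.65 to 7.41) were higher, and Serpinb11 (127-fold, 72.6 to 247), Serpinb1a and Serping1 lower. In ciliated-gated cells Serpina3g was higher, and Serpine2, Serpinb12 (11.3-fold, 8.44 to 15.5), Serpinb11, Serpinb1b and Serpina9 were lower. The Serpinb11 ratio was 214-fold with the 0 UMIs of the iBC donor-derived sum set to the 3-UMI limit, which is not a lower bound. The secretory-gated call of Serpinb1a was lost when classes came from clusters, that of Serpinb8 with a stricter gate, and the basal-gated call of Serpinb2 with a stricter gate and with per-cell means.

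The other 43 members stayed below 10 CPM in every sum of at least 50 cells. A few of them, chosen after their values were seen, had more than isolated UMIs. Serpina1b, a copy of the alpha-1-antitrypsin gene, had 153 UMIs in all and reached 4.97 CPM in iBC endogenous secretory-gated cells (43 UMIs). Serpina10, the protein Z-dependent inhibitor of coagulation factor X, had 151 UMIs in all and reached 5.48 CPM in ungated iBC donor-derived cells (18 UMIs). Serpina3f, a copy in the Serpina3 run, had 99 UMIs in all, 29 of them in the same ungated cells. Copies of these genes are similar enough that reads may be shared.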

How the data were processed

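Single-cell RNA was measured in 4 libraries, 1 per group. Values are whole-number UMI counts for each gene in each barcode, as deposited and per the file headers. Cell Ranger, STARsolo and Seurat with build GRCm38 are named in the submitters' processing notes, without versions or roles. Whether counting used strand is not stated, so overlapping and antisense genes cannot be told apart. Barcodes with under 500 genes or over 20% mitochondrial UMIs, and doublets called by Scrublet (scanpy 1.11.5), were removed; doublets were 0.165 to 2.76% of the barcodes tested. Cells were gated on mean ln(1 + counts per 10000) of fixed markers (basal 1.0, secretory 2.4, ciliated 1.2, hillock 0.6, immune 1.0), with limits set with the data at hand. UMIs were summed per class and library. Log2 ratios used a pseudocount of 5 CPM, and folds none. Ratio intervals are exact conditional binomial, CPM intervals exact Poisson, shares Clopper-Pearson, a count of 0 is bounded at 3 UMIs or 3 cells, and with 1 library per group no p-value was made. The calculation was tested on simulated data. Named genes were the members with at least 10 CPM in a sum of at least 50 cells, and from other lists the 2 highest and 2 lowest called genes per class, plus textbook targets of members. Of the features that match the symbol rule, 1 is not reported here and is left out of counts and sums of members. Members and lists were chosen with earlier results of these data known. Alternatives were TMM scaling (edgeR 4.0.16), ratios relative to the all-feature median and at least 10 CPM in both sums (both added after the data were seen), per-cell means, a stricter gate, Leiden clusters (leidenalg 0.10.2), doublets kept, no low filter, a 1.5-fold limit, a pseudocount of 1 CPM and thinning to 5000 UMIs, which left out shallower cells (676 of 718 iBC endogenous basal-gated cells stayed, and a larger share in the other large classes).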

Additional observations from a re-analysis of the deposited data

Results flagged for a closer look

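Serpinb12 in ciliated-gated cells had donor-derived and endogenous cells apart in opposite directions in the 2 recipients. Its log2 ratio of donor-derived to endogenous cells was -1.71 in the trachea given iBCs and 1.22 in that given primary BCs. Each ratio rests on 1 library per side, and the difference between recipients was not tested.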

How the results depend on the processing

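Of 58 calls over the 14 comparisons, 47 were kept under each of the alternatives run for calls (TMM scaling, all-feature median, per-cell means, stricter gate, clusters, doublets kept), and 11 were lost under at least 1. The direction turned for 1 member, Serpinb11 in primary BC basal-secretory cells (log2 -0.27 with the stricter gate and -0.39 with clusters). Without the filter on low values, calls within the iBC recipient were 13 in basal-gated, 12 in secretory-gated and 13 in ciliated-gated cells, and within the primary BC recipient 2, 4 and 5. Between endogenous cells they were 5, 9 and 8, and between donor-derived cells 12 in basal-gated and 10 in secretory-gated cells. A 1.5-fold limit gave 2, 2 and 2 calls in basal-gated, secretory-gated and basal-secretory cells of the primary BC recipient, 4 between endogenous basal-secretory and 10 between donor-derived ciliated-gated cells. Within the primary BC recipient, clusters gave 1 in basal-gated, 2 in secretory-gated and 0 in basal-secretory cells, the stricter gate 2 in secretory-gated and 0 in basal-secretory cells, and doublets kept 0 in basal-secretory cells. Between endogenous cells, doublets kept and per-cell means gave 1 each in basal-secretory cells. Clusters gave no value for that last comparison, with fewer than 50 cells in 1 library. With at least 10 CPM required in both sums, an alternative chosen after seeing the data, the iBC recipient had 2 calls in secretory-gated and 4 in ciliated-gated cells, and the primary BC recipient 0 and 1. Between endogenous cells they were 0 in basal-gated, 0 in basal-secretory and 3 in ciliated-gated cells, and between donor-derived cells 3 in basal-gated and 2 in ciliated-gated cells. Without the filter more members are tested by construction, and with both sums required fewer. The share of all features called is not given under these alternatives, except with both sums required within the iBC recipient. The other counts therefore do not set the family apart from other features. The cause of the other changes was not tested. No paired analysis was possible because each group held 1 library. Counting depth limits low members: a sum with 0 UMIs bounds a level at 0.281 to 0.962 CPM across the large classes. No alternative addresses variation between animals.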
